A study of Arabidopsis thaliana with 8 samples.

Results

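The morning genes of the circadian clock are 10 genes of Arabidopsis thaliana: CCA1 (AT2G46830), LHY (AT1G01060), RVE1 (AT5G17300), RVE4 (AT5G02840), RVE6 (AT5G52660), RVE8 (AT3G09600), LNK1 (AT5G64170), LNK2 (AT3G54500), PRR9 (AT2G46790) and PRR7 (AT5G02810). They were taken by gene identifier from the array annotation and are covered by 11 of 22746 probe sets (10 of 23334 genes), of which 10, 1 for each gene, were used. Transcripts were profiled in whole wild-type Col-0 seedlings on 8 Affymetrix ATH1 arrays, 4 of primed and 4 of unprimed seedlings, with 1 array for each treatment at 4, 8, 24 and 48 h. Priming is a sublethal heat treatment that prepares plants for a later and harsher one, and the study asked which transcripts stay altered in the memory phase that follows it. Primed seedlings, 5 days old, were heated to 37 °C for 1.5 h, rested at 22 °C for another 1.5 h and were then heated to 44 °C for 45 min, and were harvested at the stated times after their return to 22 °C. Unprimed seedlings of the same 4 time points received no such heat. All seedlings grew on agar with 1% sucrose under 16 h of light and 8 h of darkness. Heat was applied in the dark, and whether the unprimed seedlings were darkened as well is not stated, so heat and darkness cannot be told apart. Each array was hybridized with RNA of 1 pool of seedlings, so a difference within 1 time point has no test.

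In plants, the clock is a ring of genes whose products switch each other off and on in the course of the day. CCA1 and LHY are MYB-like transcription factors that are most abundant around dawn and repress genes of the evening, and the pseudo-response regulators PRR9 and PRR7 follow them and repress CCA1 and LHY in turn. RVE8, RVE4 and RVE6 are related MYB-like factors that activate afternoon and evening genes together with their partners LNK1 and LNK2, whereas RVE1 carries the dawn signal of the clock to auxin synthesis. CCA1 and PRR9 are close neighbours on chromosome 2, with 3 protein-coding genes between them, and RVE4 and PRR7 lie on chromosome 5 with 2 genes between them.

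The log2 values of the arrays end at a floor of 2.0, and a value within 0.05 of it was counted as lying at the floor, as 26.3 to 26.9% of the probe sets of an array did. Array medians lay between 6.99 and 7.08. No signal above background was measured at the floor, so that a difference taken against a value at the floor is a lower limit. Values of up to 2.39 lie so near the floor that a difference taken against them is likewise read as a lower limit. A whole seedling should hold shoot and root transcripts. All 4 shoot markers and all 4 root markers were above the floor in every array, but the level of the root markers moved with priming. Their summed level, as log2 of the sum of the linear values, was 13.14 at 4 h and 13.62 at 8 h in primed seedlings, against 14.75 and 14.80 in unprimed seedlings, and 14.60 to 14.70 against 14.58 to 14.61 at 24 and 48 h. The summed level of 5 seed storage and oil body genes lay between 4.61 and 5.08 in primed arrays, with 2 of the 5 (CRU3 and SESA1) at the floor, and between 6.42 and 9.37 in unprimed arrays. The highest value, 9.37, was that of the unprimed 24 h array, which stood apart from the other unprimed arrays (6.42 to 7.33). Of 8 reference genes, UBC21 was past 2-fold at 24 h (1.12), where it was within 2-fold against the unprimed 48 h array (0.04). Its unprimed value was 9.68 at 24 h and 10.76 to 10.85 at the other times. The other 7 reference genes were within 2-fold at all times. The part of these genes in the results was not tested. In whole seedlings, fewer cells of a type and less RNA per cell cannot be told apart. Differences at 24 and 48 h are given below also against the unprimed array of the other day, because both arrays share the hour of the day by their labels.

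Unprimed seedlings show how far the genes behave as 1 group. Of the 10 genes, 5 (CCA1, PRR9, PRR7, LNK1 and LNK2) were at least 2-fold higher in the mean of 24 and 48 h than in that of 4 and 8 h, whereas 2.23% of all probe sets were. LHY was at least 2-fold lower there, as were 1.89% of all probe sets, and its highest unprimed value, 5.40, was found at 8 h, where CCA1 was at the floor. RVE1, RVE4, RVE6 and RVE8 had no such difference. In primed seedlings, 6 genes were at least 2-fold higher at the later times (CCA1, LHY, RVE1, RVE4, PRR9 and LNK2; 7.99% of all probe sets) and RVE6 was lower (7.22%). The hour of harvest is not given, so the name of the group was not checked against the time of day, and the genes do not share 1 course.

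**Figure D1:**
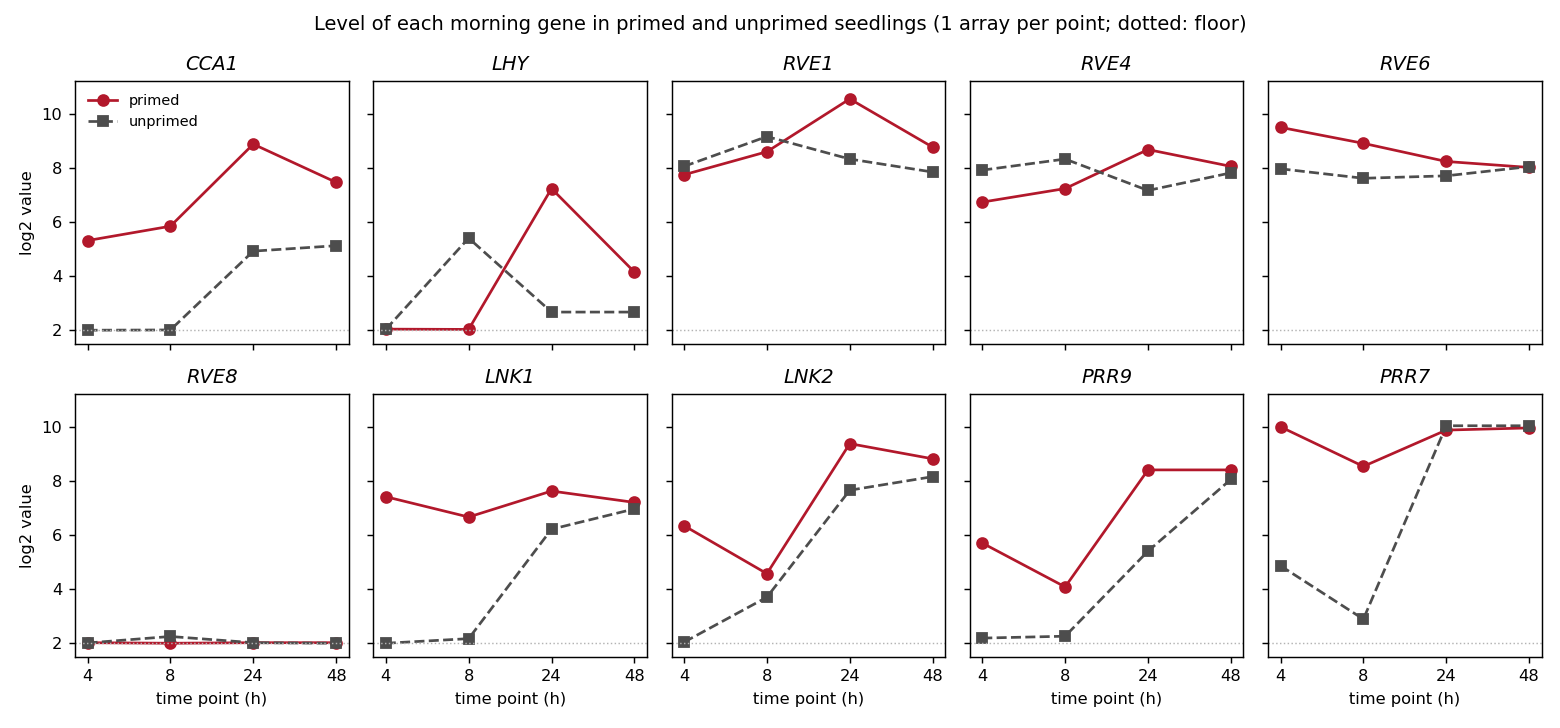
Log2 value (vertical axis) against time point in h (horizontal axis, evenly spaced) for the 10 genes in primed (red circles) and unprimed (grey squares) seedlings, 1 array per point, with the floor of 2.0 dotted. PRR7 stays between 8.53 and 9.99 in primed seedlings while the unprimed line is at 2.89 at 8 h and 10.03 at 24 h, and the lines of LHY, RVE1 and RVE4 cross between 8 and 24 h.

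Between 5 and 7 of the 10 morning genes were at least 2-fold higher in primed seedlings at 4, 8 and 24 h, and 2 were at 48 h. At 4 h, 6 of 10 were at least 2-fold higher (CCA1, RVE6, PRR9, PRR7, LNK1 and LNK2), against 9.36% of all probe sets, and 1 was at least 2-fold lower (RVE4), against 9.93%. At 8 h, 5 were higher (7.33% of all probe sets) and 2, LHY and RVE4, were lower (7.91%). At 24 h, 7 were higher (2.76%) and 0 lower (1.67%), and 4 were higher when the unprimed 48 h array served as the control (2.03%). At 48 h, CCA1 and LHY were higher (0.747%) and 0 lower (0.932%). The median log2 difference of the 10 genes was 2.42, 1.08, 1.62 and 0.30 at 4, 8, 24 and 48 h, and that of all probe sets was 0.00 at each time. RVE8 lay at or near the floor and counts among the genes within 2-fold. A difference of at least 2-fold upward at 2 or more time points was found for 7 of the 10 genes and for 5.21% of all probe sets.

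**Figure D2:**
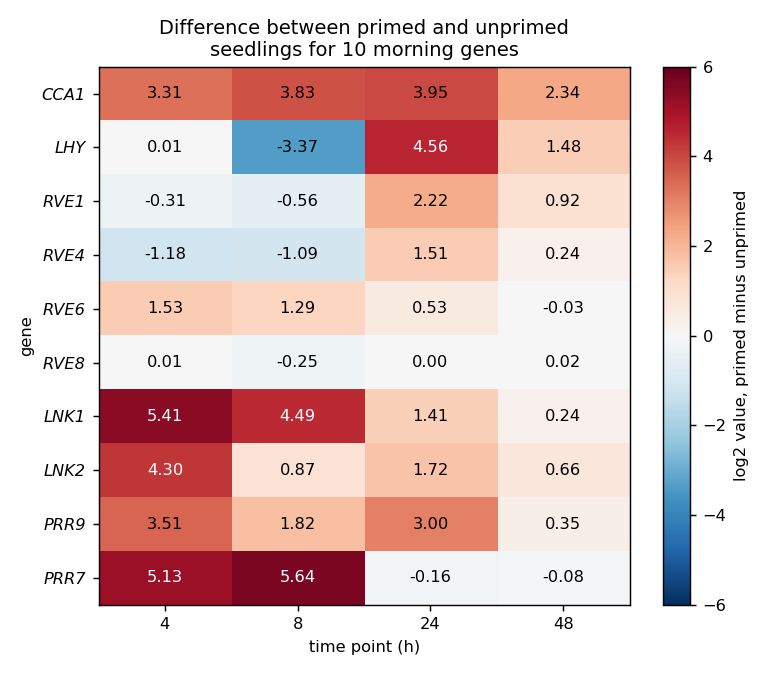
Log2 difference, primed minus unprimed, of each gene (rows) at each time point in h (columns), with red for higher and blue for lower values in primed seedlings. CCA1 is positive throughout, PRR7 and LNK1 have their largest values at 4 and 8 h, and LHY is at -3.37 at 8 h and 4.56 at 24 h.

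CCA1 was higher in primed seedlings at all 4 time points. Primed seedlings had log2 values of 5.31, 5.84, 8.87 and 7.46 at 4, 8, 24 and 48 h. Unprimed seedlings had 2.0, 2.01, 4.92 and 5.12 at the same times. All 4 primed values lay above the highest unprimed one, which held for 1 of the 10 genes and for 2.84% of all probe sets. The log2 differences were 3.31 and 3.83 at 4 and 8 h, both lower limits because the unprimed arrays were at the floor, and 3.95 and 2.34 at 24 and 48 h. A difference as high as that of CCA1 was found in 1.55% of all probe sets at 4 h and in 0.554% at 8 h.

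LHY, the closest relative of CCA1, took another course. Primed seedlings had log2 values of 2.04 and 2.03 at 4 and 8 h, both at the floor, followed by 7.23 and 4.15 at 24 and 48 h. Unprimed seedlings had 2.03 at 4 h, also at the floor, followed by 5.40, 2.67 and 2.67 at 8, 24 and 48 h. Thus LHY was lower in primed seedlings at 8 h, with a log2 difference of -3.37 that the floor limits, and higher at 24 h (4.56) and 48 h (1.48). No fold is given at 4 h, where neither array was above the floor. CCA1 and LHY, which act together as repressors, differed from each other most at 8 h, when CCA1 was above the floor in primed seedlings only and LHY in unprimed seedlings only.

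RVE1 and RVE4 also crossed over between 8 and 24 h, but of these only RVE4 was past 2-fold in both directions, as LHY was. RVE1 had log2 values of 7.74, 8.59, 10.54 and 8.76 at 4, 8, 24 and 48 h in primed seedlings, and of 8.05, 9.15, 8.32 and 7.84 in unprimed seedlings. Its log2 differences of -0.31 and -0.56 at 4 and 8 h were within 2-fold, that of 24 h was 2.22 and that of 48 h 0.92. The peak of RVE1 thus stood at 24 h in primed and at 8 h in unprimed seedlings. RVE4 had log2 values of 6.73, 7.23, 8.67 and 8.05 in primed seedlings, against 7.91, 8.32, 7.16 and 7.81 in unprimed seedlings. Its differences were -1.18, -1.09, 1.51 and 0.24, so that RVE4 was at least 2-fold lower at 4 and 8 h and at least 2-fold higher at 24 h, where it was within 2-fold against the unprimed 48 h array (0.86).

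RVE6 was above the floor in all arrays, and its difference became smaller from one time point to the next. Its log2 value was 9.49, 8.90, 8.23 and 8.01 in primed seedlings at the 4 times, against 7.96, 7.61, 7.70 and 8.04 in unprimed seedlings. The differences were 1.53, 1.29, 0.53 and -0.03. RVE8, the member of this branch with the best known role as an activator of evening genes, could not be compared. Both of its probe sets lay between 2.0 and 2.25 in all 8 arrays, and the 1 with the higher mean reached 2.25 in the unprimed 8 h array only.

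LNK1 and LNK2, the partners of the RVE activators, were well above the floor in primed seedlings at 4 h, but at the floor in unprimed ones. LNK1 had log2 values of 7.41, 6.66, 7.62 and 7.20 at 4, 8, 24 and 48 h in primed seedlings, against 2.0, 2.17, 6.21 and 6.96 in unprimed seedlings. Its differences were 5.41, 4.49, 1.41 and 0.24, of which those at 4 and 8 h are lower limits, and 0.528% of all probe sets had as high a difference at 4 h. Against the unprimed 48 h array the difference of LNK1 at 24 h was 0.66. The primed values of LNK1 lay within 0.96 of each other, and the unprimed values were nearer to them at 24 and 48 h than at 4 and 8 h. LNK2 had log2 values of 6.34, 4.57, 9.37 and 8.81 in primed seedlings, against 2.04, 3.70, 7.65 and 8.15 in unprimed seedlings. Its differences were 4.30 (a lower limit), 0.87, 1.72 and 0.66, and LNK2 was lowest at 8 h in primed and at 4 h in unprimed seedlings.

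The repressors PRR9 and PRR7 were both higher in primed seedlings at 4 and 8 h. PRR9 had log2 values of 5.70, 4.08, 8.40 and 8.40 in primed seedlings, against 2.19, 2.26, 5.40 and 8.05 in unprimed seedlings, and differences of 3.51, 1.82, 3.0 and 0.35. Those at 4 and 8 h are lower limits, since the unprimed values were near the floor, and that at 24 h was 0.35 against the unprimed 48 h array. Its probe set is shared with AT2G46670, annotated as a similar pseudo-response regulator, so the signal of these genes cannot be separated. PRR7 had log2 values of 9.99, 8.53, 9.87 and 9.95 in primed seedlings, against 4.86, 2.89, 10.03 and 10.03 in unprimed seedlings. Its differences were 5.13 and 5.64 at 4 and 8 h, and -0.16 and -0.08 at 24 and 48 h. At 4 h, the PRR7 level of primed seedlings was thus 0.04 below that of unprimed seedlings at 24 or 48 h. Of all probe sets, 0.176% had as high a difference as PRR7 at 8 h.

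Several morning genes varied less over the 4 time points in primed than in unprimed seedlings. The span, which is the highest minus the lowest log2 value of a treatment, was 1.46 in primed and 7.14 in unprimed seedlings for PRR7. For LNK1 it was 0.96 in primed and 4.96 in unprimed seedlings. PRR9 (4.32 in primed and 5.86 in unprimed seedlings) and LNK2 (4.80 and 6.11) also had a span smaller by at least 1 on the log2 scale. These 4 of 10 genes compare with 1.69% of all probe sets. Over all probe sets the median span was 0.54 in primed and 0.38 in unprimed seedlings, and over the 10 genes it was 2.37 and 3.24. A span under 1 cannot become smaller by 1, which limits the share of all probe sets. The unprimed spans of LNK1, LNK2, PRR9 and CCA1 reached down to or near the floor and are lower limits. The highest primed value exceeded the highest unprimed one by at least 1 for CCA1, LHY, RVE1, RVE6 and LNK2, which is 5 of 10 genes against 7.94% of all probe sets. A span larger by at least 1 in primed seedlings was found for LHY (5.2 in primed and 3.37 in unprimed seedlings), RVE1 (2.80 and 1.31) and RVE6 (1.48 and 0.43), which is 3 of 10 genes against 12.1% of all probe sets. LHY was at the floor in both treatments, so its spans are lower limits. Because each value is that of a single pool, the difference between the spans was not tested.

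**Figure D3:**
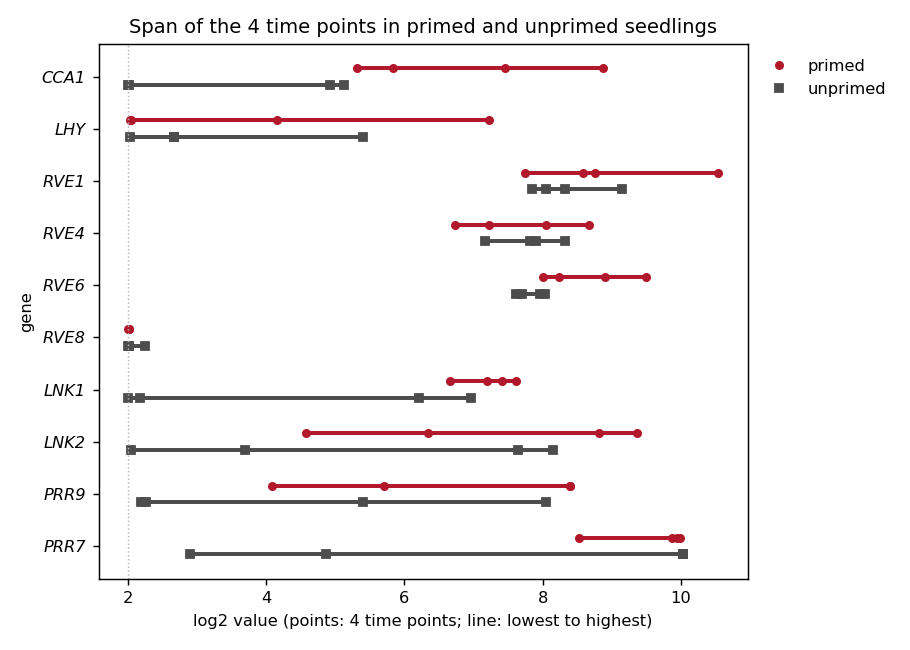
Log2 values of the 4 time points (points) and the line from the lowest to the highest, for each gene in primed (red, upper) and unprimed (grey, lower) seedlings, with the floor of 2.0 dotted. The primed lines of LNK1 (0.96) and PRR7 (1.46) are short beside the unprimed ones (4.96 and 7.14), and CCA1 is the gene whose lines do not overlap.

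The unprimed arrays of 24 and 48 h give the difference between days without priming. Of the 10 genes, PRR9 was at least 2-fold higher at 48 h, by 2.65 on the log2 scale, against 1.55% of all probe sets. The other 9 lay between -0.48 and 0.75, and thus 0 were at least 2-fold lower (1.17% of all probe sets). Between the primed arrays of the same times, LHY (-3.08), RVE1 (-1.78) and CCA1 (-1.41) were at least 2-fold lower at 48 h (1.50% of all probe sets), and no gene was at least 2-fold higher (0.703%). With the unprimed 48 h array in place of the unprimed 24 h array, 4 genes in place of 7 were at least 2-fold higher in primed seedlings at 24 h (2.03% of all probe sets) and 0 at least 2-fold lower (1.68%). LHY (4.56), CCA1 (3.75), RVE1 (2.70) and LNK2 (1.22) stayed past 2-fold. PRR9 gave 0.35, RVE4 0.86 and LNK1 0.66. At 48 h, the unprimed 24 h array as the control gave 4 higher genes in place of 2 (2.08%) and 0 lower ones (2.1%). The 4 were LHY (1.48), CCA1 (2.54), PRR9 (3.0) and LNK2 (1.16). The differences of PRR9 at 24 and at 48 h thus both depend on which unprimed array serves as the control. The seed markers were highest in the unprimed 24 h array, and their part in this was not tested.

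**Figure D4:**
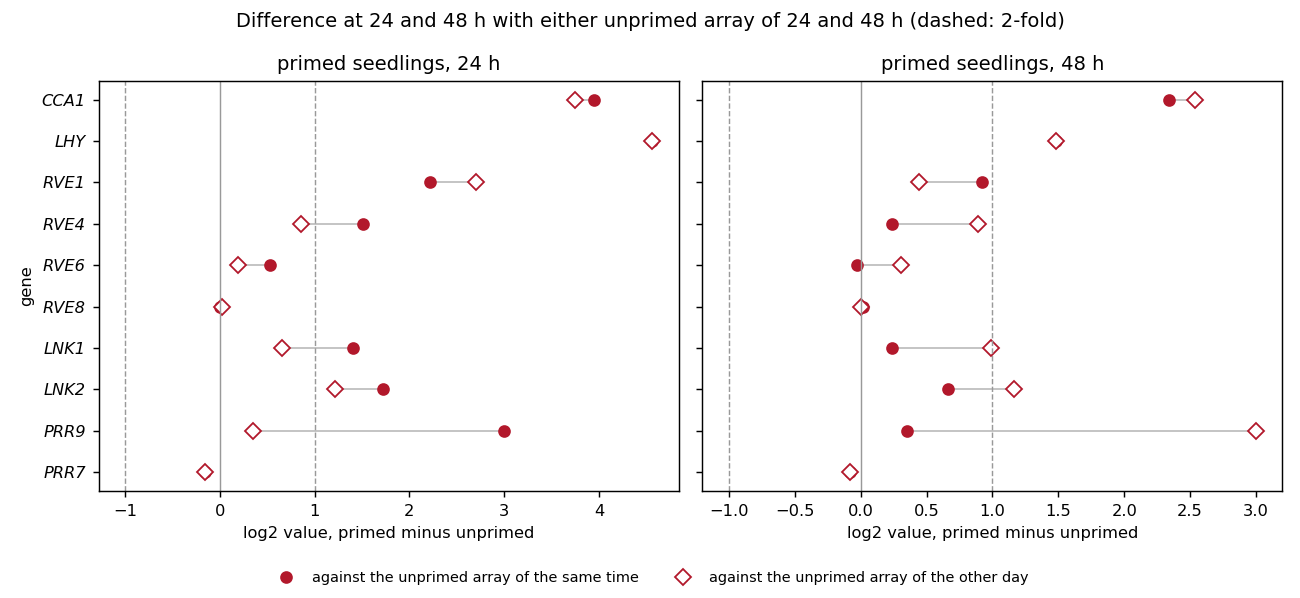
Log2 difference, primed minus unprimed (horizontal axes), of each gene at 24 h (left) and 48 h (right), against the unprimed array of the same time (filled) and of the other day (open), with dashed lines at 2-fold. PRR9 moves most with the choice of control, between 3.0 and 0.35 at 24 h and between 0.35 and 3.0 at 48 h, while LHY and CCA1 are past 2-fold with either.

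limma was run on all probe sets to test the average difference between primed and unprimed arrays, with the time point as a block. Time points are not replicates, so its standard errors also hold the change of the effect over time. CCA1 had the largest mean effect of the 10 genes, 3.36 on the log2 scale (standard error 0.34, n = 4 pairs of arrays), with a higher value in primed seedlings in 4 of 4 pairs and an adjusted p of 0.326 from limma. LNK1 (2.89, standard error 1.15), PRR9 (2.17, standard error 0.66) and LNK2 (1.89, standard error 0.78) were also higher in 4 of 4 pairs, with adjusted p-values of 0.575, 0.548 and 0.580 from limma. The differences of CCA1, LNK1 and PRR9 at 4 and 8 h, and of LNK2 at 4 h, are lower limits. These mean effects are therefore lower limits too, the floor also shapes their standard errors, and their order is not settled. PRR7 had a mean effect of 2.63 (standard error 1.49), with 2 pairs higher and 2 lower. An adjusted p of 0.05 was passed by 0 of the 10 genes and by 0 of 22746 probe sets. At an unadjusted p under 0.05 there were 984 positive (4.33%) and 1045 negative effects (4.59%), among them CCA1 and PRR9. The effect at 24 and 48 h minus that at 4 and 8 h, a fit chosen after the values were seen, also called 0 of 22746 probe sets, with 3822 at an unadjusted p under 0.05. PRR7 had the smallest adjusted p of the 10 genes in that fit, with a difference of -5.51 (standard error 0.24, adjusted p = 0.104 from limma), followed by LNK1 (-4.13, standard error 0.68, adjusted p = 0.215). The value of LNK1 is also limited by the floor at 4 and 8 h.

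Other clock genes were compared by lists. Among 6 relatives of the morning genes outside the group were LNK3 and LNK4, the remaining members of the LNK family. LNK3 was higher in primed seedlings by 6.91, 4.24, 2.09 and 0.59 on the log2 scale at 4, 8, 24 and 48 h, with values of 9.65 and 7.35 at 4 and 8 h in primed seedlings, against 2.74 and 3.11 in unprimed seedlings. Against the unprimed 48 h array, LNK3 gave 0.82 at 24 h. LNK4 gave 5.19, 3.60, 0.85 and 0.21. In primed seedlings both spanned more (4.22 and 4.71) than LNK1 (0.96). Their unprimed spans were 8.01 and 7.89, so both varied less in primed seedlings, as LNK1 did. The span was also smaller in primed seedlings for RVE2 (2.48 against 4.10) and RVE7 (1.80 against 4.10). It was nearly equal for RVE5 (0.32 against 0.40), and RVE3 lay at the floor. RVE2 had -1.08 at 4 h and 1.70 at 24 h, and RVE7, also named EPR1, gave 3.69 at 4 h and -0.82 at 48 h. Of this list, 3, 2, 2 and 0 probe sets were at least 2-fold higher at the 4 times, against 9.36%, 7.33%, 2.76% and 0.747% of all probe sets, and 1, RVE2, was lower at 4 h (9.93%).

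Of 11 probe sets of evening genes, 4 passed 2-fold upward at 4 h and 3 at 8 h, against 9.36% and 7.33% of all probe sets. At 24 and 48 h there were 0, and with 2.76% and 0.747% of all probe sets past that limit, 0 of 11 does not set the list apart. GI, which stabilizes the F-box protein ZTL, gave 4.10, 3.70, -0.73 and -0.57 at 4, 8, 24 and 48 h. PRR5, which follows PRR7 in the sequence of repressors, gave 3.70, 1.53, -0.39 and -0.75. LKP2, a relative of ZTL, had 6.24 at 4 h and 3.35 at 8 h in primed seedlings and lay near the floor, at 2.15 or 2.16, in the other arrays. TOC1, ELF3 and ELF4, which act in the evening, were within 2-fold at all 4 times. The median log2 difference of the evening list was 0.38, 0.46, -0.39 and -0.41, against 2.42, 1.08, 1.62 and 0.30 for the morning genes. At 24 h, 7 of 10 morning genes and 0 of 11 evening probe sets passed 2-fold upward, and 4 and 0 did so with the unprimed 48 h array as the control. The probe set shared by LUX and BOA, members of the evening complex, gave 2.30 at 4 h and -1.36 at 24 h, past 2-fold in opposite directions. The span was smaller by at least 1 in primed seedlings for GI (1.23 against 4.28) and PRR5 (1.80 against 3.40), as for 1.69% of all probe sets. It was larger by at least 1 for LUX and BOA (4.0 against 0.64), LKP2 (4.09 against 0.01) and ZTL (2.12 against 0.75), as for 12.1%. Of 10 output genes, 4, 2, 1 and 0 were at least 2-fold higher and 2, 0, 2 and 0 at least 2-fold lower at the 4 times. The shares of all probe sets were 9.36%, 7.33%, 2.76% and 0.747% higher and 9.93%, 7.91%, 1.67% and 0.932% lower. COR27 (1.95 and 2.40 at 4 and 8 h) and COR28 (1.76 and 1.64), which are regulated by cold and the clock, were at least 2-fold higher at both early times, and COR28 was at least 2-fold lower at 24 h (-1.54), where it was within 2-fold against the unprimed 48 h array (-0.65). CO, a promoter of flowering in long days, was at least 2-fold lower at 4 h (-1.99) and at 24 h (-1.15). CDF1, a repressor of CO, was higher at 24 h (1.88), but its unprimed value at 48 h (4.6) was likewise above that at 24 h (3.03).

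**Figure D5:**
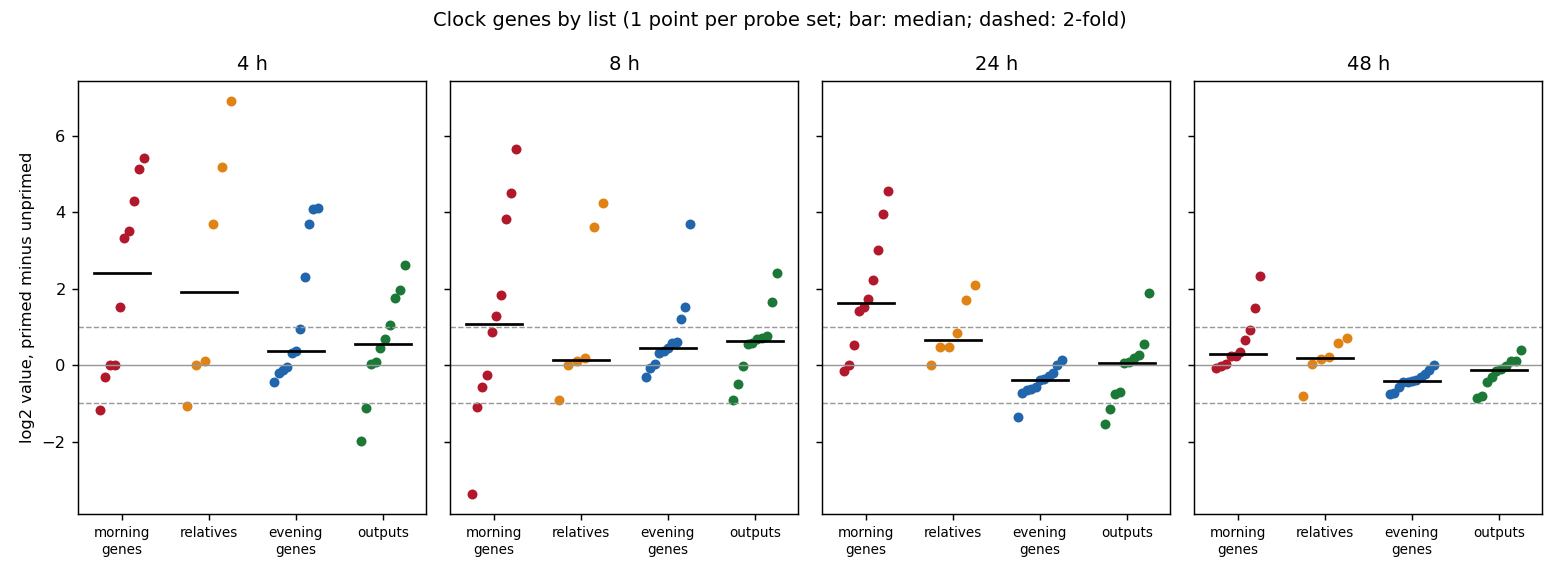
Log2 difference, primed minus unprimed (vertical axis), of single probe sets of the morning genes (10), their relatives (6), evening genes (11) and outputs (10) at 4, 8, 24 and 48 h, with the median as a bar and 2-fold dashed. At 24 h the median is 1.62 for the morning genes and -0.39 for the evening genes.

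The likeness of the genes to CCA1 and to LHY was taken over the 8 arrays. The correlations that follow are descriptions over 8 log2 values that share 4 harvest times and 2 treatments. The Pearson correlation with CCA1 was 0.88 for LNK1, 0.86 for PRR9, 0.85 for LNK2 and 0.80 for PRR7, and 0.41 for LHY. With LHY it was 0.93 for RVE1 and 0.82 for RVE4. RVE6 was like neither, with 0.29 for CCA1 and -0.37 for LHY, and RVE8, which lay at or near the floor, gave -0.51 and 0.44. In all, 2450 probe sets of a single gene, some of the 10 genes among them, spanned at least 2 on the log2 scale and reached 6 or more. Among these, and outside the 10 genes, the most like CCA1 were AT5G09570 (0.94), LEA3 (0.94), annotated as a late embryogenesis abundant protein, the C2 domain gene SYTC (0.92), AT1G80130 (0.90) and BCB (0.90), a blue copper-binding protein. The most like LHY were AT4G24700 (0.89), AT3G28270 (0.88), D27 (0.87), which encodes a carotenoid isomerase of strigolactone synthesis, AOR (0.86), annotated as an oxidoreductase, and SQP1 (0.86), annotated as a squalene monooxygenase. AT3G28270 had log2 values of 2.01, 4.58, 7.77 and 4.84 in primed seedlings, against 2.17, 7.86, 2.01 and 2.01 in unprimed seedlings.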

How the data were processed

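The authors deposited log2 values of ATH1 arrays, normalized between arrays, with 1 array per condition. GCRMA and RMA appear in the submitters' processing notes, with no version. The 2 deposited tables held equal values in all 181968 cells, and 4 columns of the authors' own log2 differences were not used. The genes, lists and tests were chosen with earlier results of these data known. Of 22810 probe sets, 64 controls were left out. The unprimed log2 value was subtracted from the primed one and counted from a log2 difference of 1. RVE8 was represented by the brighter of its 2 probe sets. limma 3.58.1 in R 4.3.3 was run on 22746 probe sets with Benjamini-Hochberg adjustment and was checked on simulated data; other steps used Python 3.11.15. Named were the 10 genes, the members of 3 further clock lists past 2-fold in the same direction at 2 or more time points, and the 5 probe sets most correlated with CCA1 and with LHY. RVE2, RVE3, RVE5, RVE7, TOC1, ELF3, ELF4, LUX, BOA, ZTL and CDF1 were named after their values had been seen. All 10 genes were found in RefSeq (TAIR10.1). The alternatives covered normalization, the floor, dim probe sets, the control, the limit, the pairs of arrays and the limma settings. With 1 array per condition, the number of arrays limits the precision.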

Additional observations from a re-analysis of the deposited data

Results flagged for a closer look

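LHY and RVE4 were at least 2-fold lower in primed seedlings at one time point and at least 2-fold higher at another. For LHY, the log2 difference at 24 h exceeded that at 8 h by at least 7.93, with -3.37 at 8 h, where the primed value was at the floor, and 4.56 at 24 h. For RVE4, the difference at 24 h exceeded that at 4 h by 2.69, with -1.18 at 4 h and 1.51 at 24 h (0.86 against the unprimed 48 h array). With 1 array per condition, the difference between these pairs of time points was not tested. The fit of 24 and 48 h against 4 and 8 h, chosen after the values were seen, gave 4.70 for LHY (standard error 2.08, adjusted p = 0.442 from limma). For RVE4 the fit gave 2.01 (standard error 0.58, adjusted p = 0.31 from limma). The value of LHY is limited by the floor at 4 and 8 h.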

How the results depend on the processing

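Genes at least 2-fold higher numbered 6, 5, 7 and 2 at 4, 8, 24 and 48 h. Quantile normalization, centring on 8 reference genes and a floor raised to 2.39 left these counts the same. The series matrix values and the other probe set of RVE8 could not change them. The former are equal to the values used, and both RVE8 probe sets lay at or near the floor. Without dim probe sets (mean under 7.04), 4 genes were left (RVE1, RVE4, RVE6 and PRR7) and the counts were 2, 2, 2 and 0. A 4-fold limit gave 3 at 8 h, 4 at 24 h and 1 at 48 h, and a 1.5-fold limit gave 4 at 48 h. With the unprimed array of the other day as the control, a setting chosen after the data had been seen, the counts were 4 at 24 h and 4 at 48 h. When all 4 unprimed arrays were averaged to give 1 control, which mixes hours of the day, the count at 48 h was 5. For the averaged control, the other limits and the set without dim probe sets, the share of all probe sets was not taken. Those counts are thus not read against a share. With the averaged control, 9 of 40 differences changed sign, and 1 of these, that of PRR9 at 8 h (-0.39), had been past 2-fold. The single differences were judged against a log2 SD of 0.309. It is the SD of unprimed 48 h minus unprimed 24 h over 16496 probe sets above the floor, divided by the square root of 2. This is a spread between days over many genes and not one between replicates. By this limit, 0 of 40 differences moved with quantile normalization or centring, 5 with the raised floor and 28 with the averaged control. Of 20 differences, 6 moved with the mean of both later controls and 12 with the control of the other day. Either control shifts a gene equally far at 24 and at 48 h, in opposite directions, so these differences are not separate outcomes. The SD comes from the same unprimed arrays, so it is no independent measure for them. In all limma settings 0 of the 10 genes were called, while the calls over all probe sets were 8 without the block, 6 without dim probe sets, 1 with centring and 0 in the others. When each pair of arrays was left out in turn, the mean effect lay between -0.63 (without 24 h) and 2.02 for LHY, between -0.68 and 0.22 for RVE4, and between -0.08 and 0.01 for RVE8, and kept its sign for the other 7 genes. It lay between 3.16 and 3.70 for CCA1, 0.017 (without 24 h) and 0.94 for RVE1, 1.63 (without 8 h) and 3.56 for PRR7, and 1.08 (without 4 h) and 2.30 for LNK2. The floor limits the genes with low values, CCA1, LHY, RVE8, LNK1, LNK2 and PRR9.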
